A study of Mus musculus with 12 samples.

Results

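Levels of 10 chemokine mRNAs, Ccl2, Ccl3, Ccl4, Ccl5, Ccl6, Ccl7, Ccl12, Cxcl10, Cxcl12 and Cxcl16, were examined in RNA-Seq of FACS-sorted O1+ CD45- brain cells. They are the genes of these symbols among the 55376 of the count table. The 12 samples came from C57BL/6 mice at postnatal day 40, with the cells of 2 brains in each. There were 4 samples of WT mice, 4 of Cnp-Cre Jab1fl/fl mice (Jab1 mutants), and 4 of Cnp-Cre Jab1fl/fl p21CIP1-/- mice (double mutants). In both mutants a Cre recombinase under the promoter of Cnp, a gene of the oligodendrocyte lineage, recombines the floxed Jab1 gene. Jab1 (gene symbol Cops5) is the catalytic subunit of the COP9 signalosome. The double mutants in addition lack p21CIP1 (Cdkn1a), a cell cycle inhibitor, in all cells and not only in that lineage. The comparisons ask which chemokines differ with the loss of Jab1, and whether they differ further when p21CIP1 is lost too.

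Chemokines are small secreted proteins that guide the movement of leukocytes through receptors on their surface. Senescent cells, which have left the cell cycle for good, release a mixture of cytokines, chemokines and proteases known as the senescence-associated secretory phenotype. In the brain the inflammatory CC chemokines are known mainly as products of activated microglia and macrophages. Cxcl12 is unlike them in being made in the healthy brain, by cells of the vessels and meninges among others.

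All members but Cxcl10, on chromosome 5, and Cxcl12, on chromosome 6, lie on mouse chromosome 11 (build GRCm38). Ccl2 (chr11:82035571-82037453), Ccl7 (chr11:82045712-82047525) and Ccl12 (chr11:82101845-82103400) are neighbours on the plus strand. Ccl5 (chr11:83525778-83530518), Ccl6 (chr11:83587882-83593087) and Ccl3 (chr11:83647844-83649355) lie on the minus strand near Ccl4 (chr11:83662584-83664683), which is on the plus strand. Cxcl16 is at chr11:70453983-70459984 on the minus strand. Cxcl10 is at chr5:92346638-92348889 on the minus strand, and Cxcl12 is at chr6:117168535-117181367 on the plus strand. Genes on the opposite strand overlap Ccl2 (Gm17268), Ccl6 (E230016K23Rik), Cxcl10 (Art3) and Cxcl16 (Zmynd15). The counts of these 4 members are therefore uncertain to the extent that reads of the partner were shared.

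Promoter sequences from RefSeq (GRCm38.p6) were matched for 5 of the 10 members, Ccl3, Ccl6, Ccl12, Cxcl10 and Cxcl12, and not for Ccl2, Ccl4, Ccl5, Ccl7 and Cxcl16. The 250 bases before each start were searched on both strands for the kB consensus, bound by NF-kB, for the interferon-stimulated response element (ISRE, the letters TTTC, any 2 bases and TTTC again), and for the AP-1 site (TGANTCA). Cxcl10 had matches to all of them, and the windows of the other members did not hold these letters. Of the promoters of 27025 genes, 8.23% held the kB consensus, 3.46% the ISRE and 7.82% the AP-1 site. The Cxcl10 window, chr5:92348890-92349139 on the minus strand, is shown because it holds the matches, which are in capitals, and that of Ccl3, chr11:83649379-83649628 on the minus strand, for contrast. In the Cxcl10 window the capitals are, from 5′ to 3′, the ISRE on the reverse strand beginning 213 bases before the start, a kB match at 159 bases, overlapping kB matches at 104 and 103 bases, and the AP-1 match at 74 bases.
Cxcl10: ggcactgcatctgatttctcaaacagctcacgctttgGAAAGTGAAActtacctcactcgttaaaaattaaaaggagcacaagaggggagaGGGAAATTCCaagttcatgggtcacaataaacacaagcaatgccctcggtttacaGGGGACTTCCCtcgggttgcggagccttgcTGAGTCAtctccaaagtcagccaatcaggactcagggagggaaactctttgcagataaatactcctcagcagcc
Ccl3: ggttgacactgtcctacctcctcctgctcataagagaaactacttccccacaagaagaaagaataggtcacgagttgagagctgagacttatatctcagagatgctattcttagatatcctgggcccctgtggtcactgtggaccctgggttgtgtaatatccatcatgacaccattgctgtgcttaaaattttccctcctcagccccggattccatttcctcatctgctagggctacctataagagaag
A match is a run of letters and says nothing of binding in these cells.

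The samples held between 61485556 and 153495112 counts. Counts of Cops5 were 139, 48.4, 135 and 107 CPM (counts scaled to the same library total) in WT replicates 1, 3, 5 and 6, 86.1, 65.3, 63.8 and 42.5 in the Jab1 mutants and 47.8, 45.6, 87.5 and 51.2 in the double mutants. The groups overlapped because of WT replicate 3, and the decrease did not pass the test (log2 fold change -0.62, SE 0.36, adjusted p = 0.349, edgeR). Cdkn1a was 43.4 ± 32.8 CPM in WT, 434 ± 113 in Jab1 mutants and 88.3 ± 18.7 in double mutants (mean ± SD, n = 4), so reads of this gene were still counted in double mutants. Summed markers of oligodendrocytes were between 49733 and 118360 CPM in WT, between 8609 and 36099 in Jab1 mutants and between 16938 and 55288 in double mutants. Ptprc, which encodes the CD45 antigen depleted by the sort, was between 0 and 1.57 CPM in WT, between 31.7 and 100 CPM in Jab1 mutants and between 3.20 and 97.9 CPM in double mutants. The sum of 20 microglia markers was between 164 and 396 CPM in WT and between 1374 and 3340 in Jab1 mutants, and 19 of the 20 were higher in Jab1 mutants (edgeR, adjusted p below 0.05). In double mutants the sum was 563, 1216 and 2627 CPM in replicates 1, 2 and 5, and 23263 in replicate 3, which stood apart. Endothelial markers were also higher in Jab1 mutants (8 of 12), with sums of 509 to 1251 CPM in WT, 1168 to 8054 in Jab1 mutants and 1010 to 9345 in double mutants. Mural cell markers were higher for 4 of 7, with sums of 293 to 498 CPM in WT, 936 to 1622 in Jab1 mutants and 295 to 1623 in double mutants. The defining genes of microglia were above 0 in every genotype. Markers of neutrophils and monocytes summed to 0.663 to 2.27 CPM in WT, 8.06 to 13.5 in Jab1 mutants and 2.41 to 164 in double mutants, those of border macrophages to at most 49.7 CPM and those of T cells to at most 4.57 CPM in any sample. The median log2 fold change between Jab1 mutants and WT was -0.48 for 12 astrocyte markers and 1.21 for 10 neuron markers. The part of these cells in the values below was not tested, and in bulk samples fewer cells of a type and less RNA per cell cannot be told apart.

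In WT samples the inflammatory chemokines were at or near 0, and in Jab1 mutants 9 of the 10 members were higher in every sample than in any WT sample, which held for 8.73% of all genes tested. Of the 10 members, 9 passed the filter on low values (1 CPM or more in 4 or more of the 12 samples), and all 9 were called higher (edgeR, adjusted p below 0.05) beside 5.19% of the 17716 genes tested. Ccl2, Ccl3, Ccl4, Ccl5, Ccl6 and Cxcl10 were below 1 CPM in all WT samples, so they passed this filter only through the mutants and had to differ. Ccl12 reached 1 CPM in 1 WT sample and Cxcl16 in 2, so both also needed mutant samples to pass. Only Cxcl12, at 1 CPM or more in 4 WT samples, passed without them. The 9 calls were thus tied in part to how the genes passed the filter. Without WT replicate 5, Jab1-mutant replicate 1 or Jab1-mutant replicate 4, in each case 5 members were called. Over all genes, 504, 561 and 528 were called higher in these fits, against 919 with all samples.

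**Figure D1:**
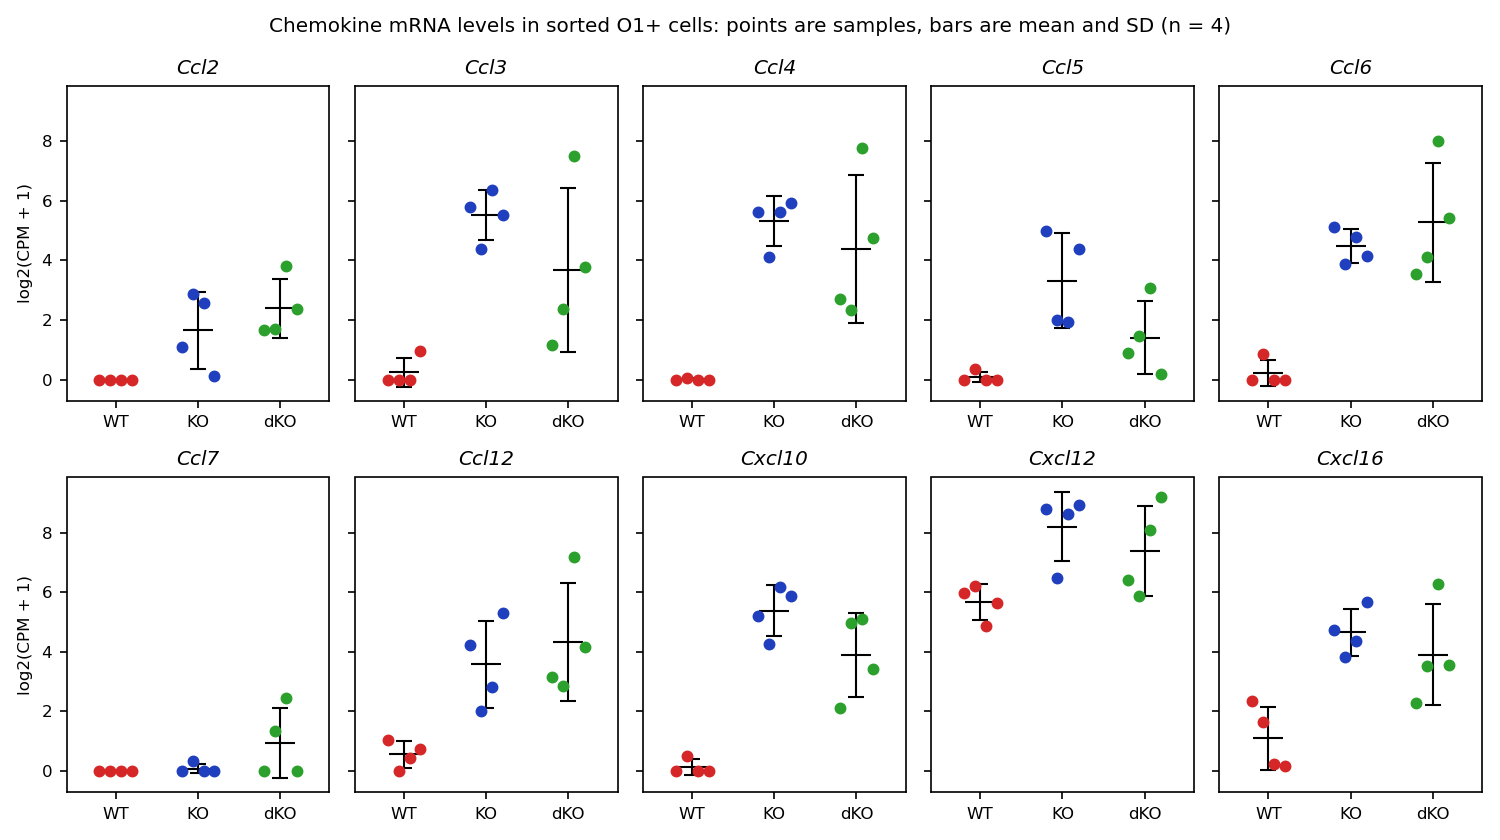
Level of each chemokine as log2(CPM + 1) in WT, Jab1-mutant (KO) and double-mutant (dKO) samples. Points are samples and bars are the mean and SD of 4 samples. Ccl2, Ccl3, Ccl4, Ccl5, Ccl6 and Cxcl10 lay below 1 CPM in each WT sample, Cxcl12 was at 28.0 CPM or more in all, and one double-mutant sample (replicate 3) was the highest of its group for 9 of the 10.

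Ccl3 and Ccl4 are macrophage inflammatory proteins, made by activated myeloid cells. Ccl3 was at 0, 0, 0 and 0.933 CPM in WT and at 54.2, 19.9, 81.8 and 44.7 CPM in Jab1 mutants. The groups were far apart, with a log2 fold change of 7.89 (SE 1.66, adjusted p = 0.0169, edgeR). Ccl4 was at 0, 0.0405, 0 and 0 CPM in WT and at 48.5, 16.2, 48.0 and 60.4 CPM in Jab1 mutants. The 6 counts of 1 sample were all that WT held, and the log2 fold change was 11.73 (SE 1.02, adjusted p = 4.17e-04). Ccl3 and Ccl4 were called in all 17 alternative fits. Ccl5, a chemokine of T cells and of activated glia, was at 0, 0.277, 0 and 0 CPM in WT and at 30.8, 2.96, 2.84 and 19.7 CPM in Jab1 mutants. Jab1-mutant replicates 1 and 4 were high and the others low, and the log2 fold change was 7.69 (SE 1.78, adjusted p = 0.0257). The call of Ccl5 was lost in 5 of the 8 fits without one sample (adjusted p = 0.0150 to 0.0673) and with limma-voom (adjusted p = 0.0787). It was also lost with the replicate number as a block, a fit that rests only on numbers 1 and 3, which occur in both genotypes.

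Ccl2, Ccl7 and Ccl12 are the monocyte chemoattractants, ligands of Ccr2. Ccl2 had no counts in any WT sample and was at 1.11, 6.27, 4.86 and 0.0763 CPM in Jab1 mutants. In Jab1 mutants it was at least 109-fold higher, against a floor of 3 counts per WT library (adjusted p = 0.0177, edgeR), or at least 71.1-fold without Jab1-mutant replicate 2. Jab1-mutant replicate 4 held 6 counts of Ccl2 and the others 90 to 753, and limma-voom did not call it (adjusted p = 0.103). The fit with the replicate number as a block did not call Ccl2 either. Ccl12 was at 1.06, 0, 0.358 and 0.667 CPM in WT and at 17.6, 3.01, 6.03 and 38.1 CPM in Jab1 mutants. Its log2 fold change was 5.09 (SE 1.34, adjusted p = 0.0423), and the call was lost in 6 of the 8 fits without one sample (adjusted p = 0.0280 to 0.125). It was also lost in the edgeR fit of all 12 samples and without the filter. Ccl7 was low throughout and did not pass the filter. It was at 0 in all WT samples and at 0, 0.250, 0 and 0 CPM in Jab1 mutants, a difference of 0.08 on the log2(CPM + 1) scale (two-sided exact permutation test, p = 1, where the smallest p that 4 against 4 samples allow is 0.0286).

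Ccl6, a chemokine of mice and rats that binds Ccr1, was at 0, 0.816, 0 and 0 CPM in WT and at 33.6, 13.6, 26.4 and 16.8 CPM in Jab1 mutants. The mutant values were close together, and the log2 fold change was 6.87 (SE 1.68, adjusted p = 0.0315, edgeR). The call was lost in 6 of the 8 fits without one sample (adjusted p = 0.00171 to 0.0705). It was also lost in edgeR without the filter (adjusted p = 0.0519).

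Cxcl10 is induced by interferons and draws activated T cells through Cxcr3. It was at 0, 0.432, 0 and 0 CPM in WT and at 35.7, 18.0, 72.1 and 57.1 CPM in Jab1 mutants. The log2 fold change was 8.74 (SE 1.48, adjusted p = 0.00682, edgeR), and all 17 alternative fits called it. Cxcl16, made as a transmembrane protein and the ligand of Cxcr6, was at 4.06, 2.10, 0.189 and 0.122 CPM in WT and at 25.7, 13.1, 19.4 and 50.6 CPM in Jab1 mutants. WT samples spread widely but stayed below the mutants, and the log2 fold change was 4.20 (SE 1.04, adjusted p = 0.0328). The call of Cxcl16 was lost in 5 of the 8 fits without one sample (adjusted p = 0.0280 to 0.0883). It was also lost in the edgeR fit of all 12 samples, without the filter and with the replicate number as a block.

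Cxcl12, the ligand of Cxcr4 and Ackr3, had counts in every WT sample, as did only Cxcl16 among the others. It was at 62.6, 72.9, 28.0 and 48.8 CPM in WT and at 444, 87.2, 394 and 487 CPM in Jab1 mutants. Replicate 2 of the mutants lay close to the highest WT sample, and the log2 fold change of 2.86 (SE 0.53, adjusted p = 0.00966, edgeR) was the smallest of the 9. It was called in all 17 alternative fits. The median of the 9 fitted log2 fold changes was 7.69, or 6.87 with Ccl2 at its bound, beside 0.02 over all genes tested. Only Cxcl12 of the 9 passed the filter without mutant samples, and the members were chosen with earlier results of these data known. A high median was thus in part fixed in advance and is no test. Without WT replicate 3, which held all the WT counts of Ccl4, Ccl5, Ccl6 and Cxcl10, the fitted median was 11.18. The fitted values of these genes were then between 13.4 and 15.1, as was that of Ccl3 without WT replicate 6 (15.4), and with no WT counts left they are no bounds. The sizes of these folds thus rest on 1 WT library each.

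**Figure D2:**
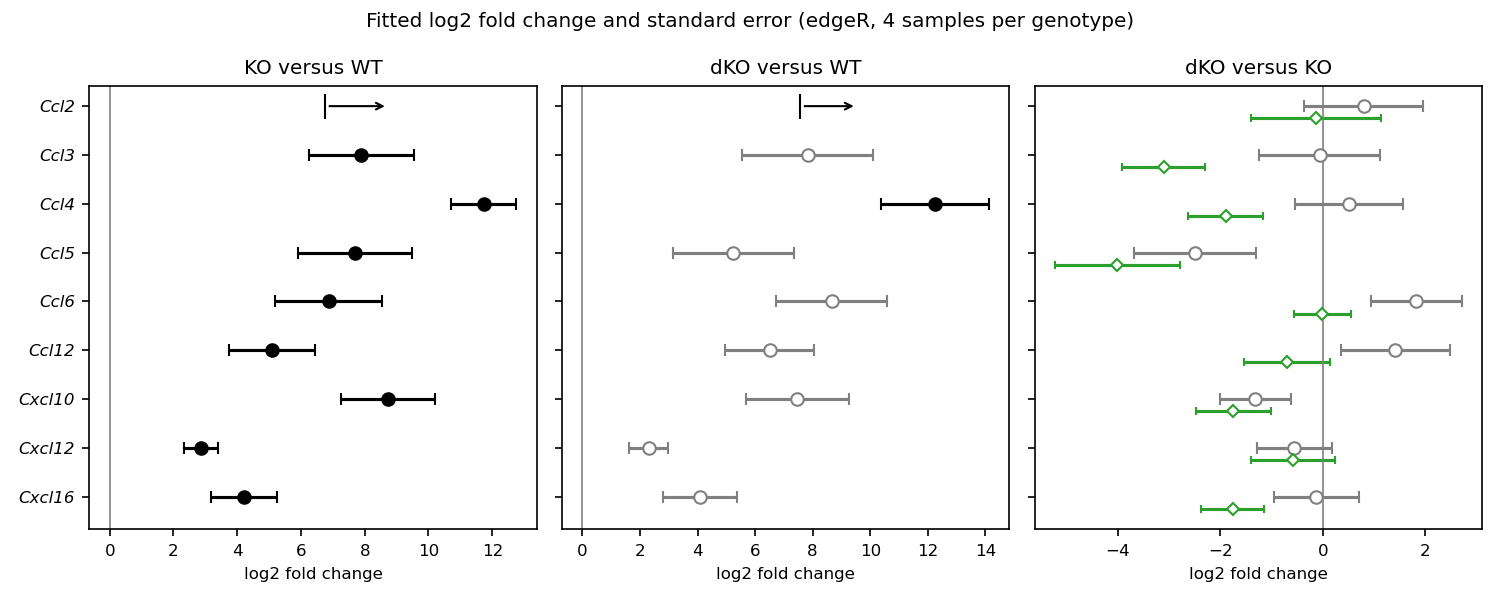
Fitted log2 fold change of the 9 chemokines that passed the filter, with its standard error, for Jab1 mutants (KO) versus WT, double mutants (dKO) versus WT and double mutants versus Jab1 mutants. Filled circles passed an adjusted p of 0.05, open circles did not, an arrow starts at the lower bound of Ccl2, which had no WT counts, and green diamonds leave out double-mutant replicate 3. Without that sample all 9 values of the last comparison lay below 0, from -4.01 to -0.0092. It was the highest double mutant for every member but Cxcl12, so leaving it out lowers these values by itself.

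The makeup of the group differed between WT and mutants. Levels can be compared between genes only per length, so CPM was divided by the exonic length in kilobases. This length joins all annotated exons of a gene, 7160 bases for Cxcl12 and 532 to 2699 for the others. Where shorter transcripts of a gene prevail, its share and rank are too low, and this was not tested. In WT, Cxcl12 made up between 71.6% and 84.1% of the summed level per length of the 10 members. In Jab1 mutants its share was between 11.3% and 17.5%, although its own level was higher. The sum itself was between 4.64 and 12.4 CPM per kilobase in WT and between 108 and 394 in Jab1 mutants. Among Jab1 mutants the share of Ccl4 was between 20.7% and 23.2%, that of Ccl3 between 14.8% and 32.4%, that of Ccl12 between 3.40% and 18.0% and that of Cxcl10 between 6.61% and 14.4%. Cxcl12 ranked the third in each of these samples, whereas Ccl3 ranked the first in replicates 2 and 3 and the fourth in replicate 4. Ccl7 had the lowest share in each, at most 0.289%. In double mutants the share of Cxcl12 was between 3.31% and 38.0% and the sum between 51.8 and 1133 CPM per kilobase.

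**Figure D3:**
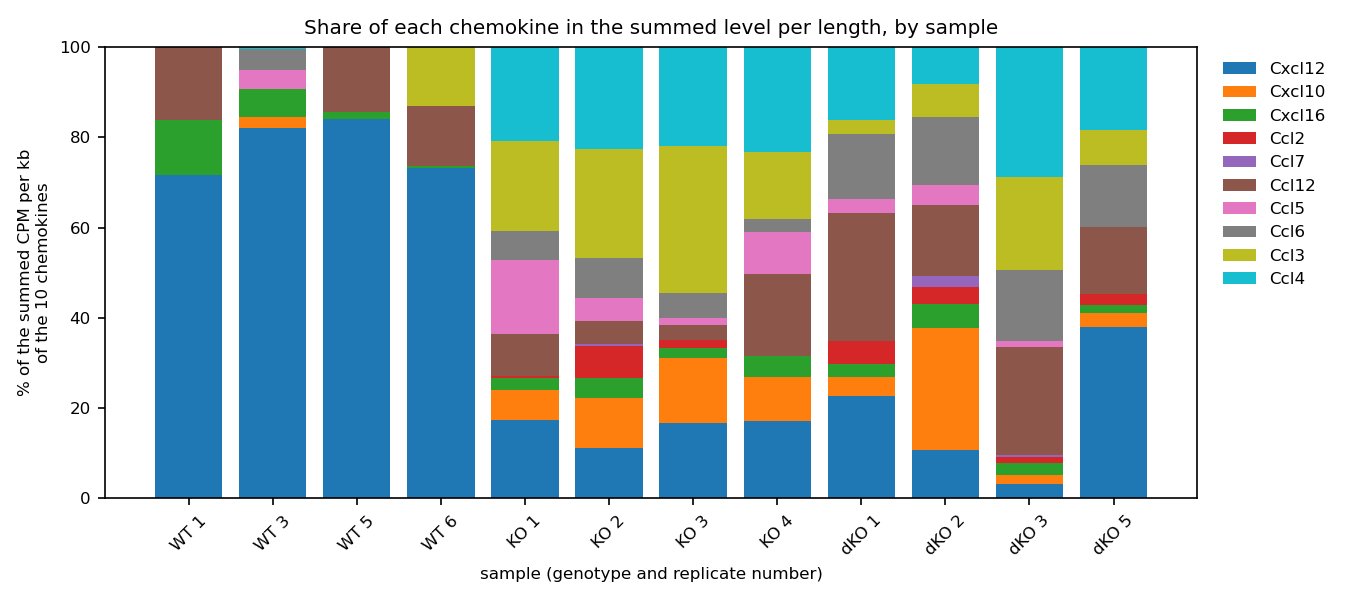
Share of each chemokine in the summed CPM per kilobase of the 10, in percent, for each of the 12 samples (KO, Jab1 mutant; dKO, double mutant). Cxcl12 holds at least 71.6% in the WT samples and at most 17.5% in the Jab1-mutant samples.

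Between double mutants and Jab1 mutants all 10 members overlapped, where 1.35% of all genes tested were higher and 1.91% lower in every double mutant. None of the 9 tested was called by edgeR, and 0 had an unadjusted p below 0.05, where 1.75% of all genes had one in the higher and 3.25% in the lower direction. By edgeR the share of all genes called was 0%. DESeq2 on the 8 samples called 0 members beside 0.499% of all genes, with 3 members at an unadjusted p below 0.05 beside 6.94% of all genes. DESeq2 on all 12 samples called 0 members beside 0.864% of all genes, with 0 at an unadjusted p below 0.05 beside 8.52%. Limma-voom called 0 members beside 0.00564% of all genes, with 2 at an unadjusted p below 0.05 beside 8.26%. Double-mutant replicate 3, the sample with the most microglia markers, decided the sign of several differences. Ccl3 was at 1.21, 4.10, 179 and 12.6 CPM in double-mutant replicates 1, 2, 3 and 5. Replicate 3 was above every Jab1 mutant and the other samples below every one, and the log2 fold change was -0.06 (SE 1.18), or -3.11 (SE 0.81) without replicate 3. Ccl4 was at 5.57, 4.00, 216 and 26.0 CPM, with a log2 fold change of 0.51 (SE 1.05), or -1.90 (SE 0.74) without replicate 3. In Ccl4, 2 of the 4 double-mutant samples lay below the lowest Jab1 mutant.

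Ccl5 was at 0.853, 1.75, 7.45 and 0.143 CPM in double mutants, and 3 of the 4 samples were below every Jab1 mutant. Its log2 fold change was the lowest of the 9, at -2.50 (SE 1.18, adjusted p = 0.968, edgeR). Cxcl10 was at 3.32, 30.4, 33.4 and 9.64 CPM, and its log2 fold change was -1.32 (SE 0.69, adjusted p = 0.991). Replicates 2 and 3 lay within the range of the Jab1 mutants, and replicates 1 and 5 below it. Cxcl16 was at 3.85, 10.6, 76.6 and 10.7 CPM, 3 samples below every Jab1 mutant and replicate 3 above, with a log2 fold change of -0.13 (SE 0.83), or -1.76 (SE 0.61) without replicate 3. Cxcl12 was at 84.3, 57.6, 268 and 580 CPM, with replicates 1 and 2 below every Jab1 mutant and a log2 fold change of -0.55 (SE 0.73).

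Ccl6 was at 10.7, 16.3, 257 and 41.8 CPM in double mutants, with the highest log2 fold change of the 9, 1.82 (SE 0.89, adjusted p = 0.968, edgeR). Without replicate 3 it was -0.0092 (SE 0.56). Ccl12 was at 7.89, 6.21, 146 and 16.9 CPM, with a log2 fold change of 1.42 (SE 1.07), or -0.69 (SE 0.84) without replicate 3. The positive values of both genes rested on 1 sample. Ccl2 was at 2.20, 2.23, 13.1 and 4.15 CPM, within or above the range of the Jab1 mutants, with a log2 fold change of 0.80 (SE 1.16), or -0.13 (SE 1.27) without replicate 3. Ccl7 was at 0, 1.55, 4.44 and 0 CPM, 0.87 above the Jab1 mutants on the log2(CPM + 1) scale (two-sided exact permutation test, p = 0.429).

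Without double-mutant replicate 3, all 9 log2 fold changes were below 0, as were 48.5% of those of all genes tested. Of the 9, Ccl3, Ccl4, Ccl5, Cxcl10 and Cxcl16 then had an unadjusted p below 0.05 and a negative sign, as 3.38% of all genes did, and none passed the adjustment (smallest adjusted p = 0.627, Ccl3). Replicate 3 was singled out by its values, as the highest double mutant for every member but Cxcl12. Leaving it out lowers the log2 fold changes by itself, so both counts are tilted in advance and are no test.

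Against WT, 6 of the 10 members, Ccl2, Ccl3, Ccl4, Ccl6, Ccl12 and Cxcl10, were higher in every double mutant than in any WT sample, as were 4.01% of all genes tested. The test called Ccl2 and Ccl4 higher, beside 0.175% of all genes. For Ccl2 the double mutants were at least 191-fold higher, against the same floor (adjusted p = 0.0437, edgeR), or at least 101-fold without double-mutant replicate 3. Ccl4 had a log2 fold change of 12.25 (SE 1.88, adjusted p = 0.0404). The other 7 had log2 fold changes from 2.30 (Cxcl12) to 8.66 (Ccl6) with adjusted p from 0.102 to 0.335, and the unadjusted p of all 9 was below 0.05, as for 7.82% of all genes in this direction. Without double-mutant replicate 3 it was so for 7 of the 9 members, and their median log2 fold change was 4.71 instead of 7.47. Without WT replicate 1, 5 or 6 it was so for 8, and without WT replicate 3 the median was 11.07. This comparison shares its WT samples with that of Jab1 mutants and WT. Here too, only Cxcl12 of the 9 passed the filter on WT samples alone. Both calls were lost without any 1 of the WT samples and without double-mutant replicate 2, 3 or 5, and 3 members were called without replicate 1.

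Several members followed the microglia markers from sample to sample when deviations from the genotype means were pooled over all genotypes. Correlations within a single genotype were not computed. In WT, replicate 3 had the lowest marker sum (164 CPM) but held all counts of Ccl4 and Ccl6, while Ccl12 was at 0 there. In Jab1 mutants, Ccl3 and the marker sum were both lowest in replicate 2 (19.9 and 1374 CPM). Ccl3 was highest in replicate 3 (81.8 CPM), where the marker sum of 2109 was below those of replicates 1 and 4. After subtraction of genotype means of log2(CPM + 1), the correlation with the mean of the microglia markers was 0.95 for Ccl3, 0.92 for Ccl4, 0.88 for Ccl6 and 0.83 for Ccl12 over the 12 samples. Double-mutant replicate 3 contributed much of this, since without it (11 samples) the values were 0.78, 0.67, 0.53 and 0.53. For Ccl2, Ccl5, Cxcl10, Cxcl12 and Cxcl16 they were between 0.45 and 0.69, and between -0.12 and 0.51 without it. The endothelial markers summed to 8054, 1168, 3326 and 5845 CPM in Jab1-mutant replicates 1 to 4. Cxcl12 was there at 444, 87.2, 394 and 487 CPM. In double-mutant replicates 1, 2, 3 and 5 the sums were 1010, 1183, 5158 and 9345, with Cxcl12 at 84.3, 57.6, 268 and 580. In WT replicates 1, 3, 5 and 6 they were 1251, 874, 509 and 1019, with Cxcl12 at 62.6, 72.9, 28.0 and 48.8. Correlations with the endothelial markers were not computed. Among the members, Ccl3 and Ccl4 had a correlation of 0.94 (0.77 without replicate 3), and the median of the 36 pairs was 0.56 (0.30). The samples share libraries and depth across genes, so these values describe the samples and were not tested.

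Set against the summed microglia markers, Ccl3 was between 13.6 and 38.8 per 1000 CPM of markers in Jab1 mutants and between 2.15 and 7.67 in double mutants. The ranges did not overlap, replicate 3 included. Ccl4 was between 11.8 and 22.7 in Jab1 mutants and between 3.29 and 9.90 in double mutants, also without overlap. Of all genes tested, 1.02% were lower in every double mutant on this measure. Ccl6 was between 5.10 and 12.5 in Jab1 mutants and between 11.03 and 19.0 in double mutants, and Ccl2, Ccl5, Ccl12, Cxcl10, Cxcl12 and Cxcl16 overlapped as well. With the difference from the mean log2 level of the markers in place of the ratio, chosen after seeing the data, Ccl3 was again lower in every double mutant, as were 0.305% of all genes. On that measure Ccl4 overlapped and Ccl6 was higher in every double mutant, as were 0.0169% of all genes.

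**Figure D4:**
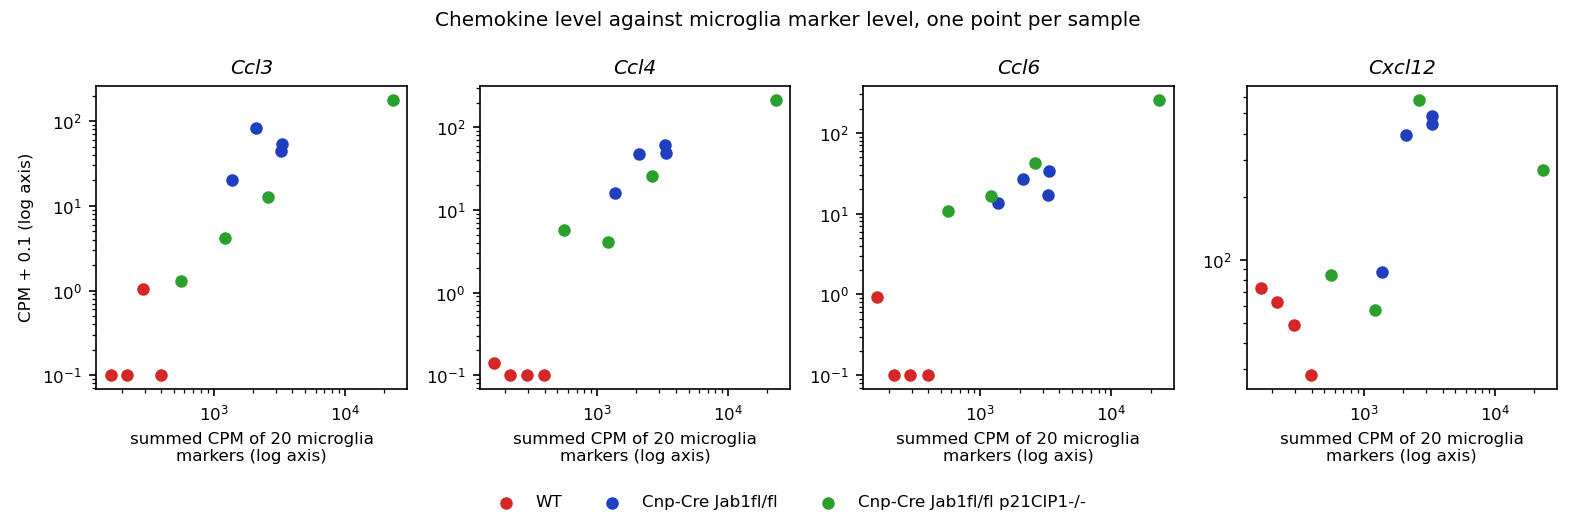
CPM of Ccl3, Ccl4, Ccl6 and Cxcl12 (plus 0.1, log axis) against the summed CPM of 20 microglia markers (log axis), with 1 point per sample. Double-mutant replicate 5, the only sample of its group within the marker range of the Jab1 mutants, lies below all of them for Ccl3. For Ccl4 (26.0 CPM) that sample lies within their range, and for Ccl6 (41.8) and Cxcl12 (580) above all of them. Double-mutant replicate 3 is far to the right at 23263 CPM of markers.

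Of the 28 other chemokine ligands, 8 passed the filter and 1 was called higher in Jab1 mutants than in WT, beside 5.19% of all genes tested. It was Ccl9, a Ccr1 ligand like Ccl6, at 0.0895 ± 0.144 CPM in WT, 16.2 ± 17.8 in Jab1 mutants and 33.4 ± 51.2 in double mutants (SD, n = 4), with a log2 fold change of 7.60 between Jab1 mutants and WT (SE 1.63, adjusted p = 0.0181, edgeR). Ccl9 was below 1 CPM in all WT samples, so it passed the filter only through the mutants and had to differ. Its call was lost with limma-voom (adjusted p = 0.0570), without WT replicate 6 (adjusted p = 0.0506) and without Jab1-mutant replicate 4 (adjusted p = 0.0625). The median log2 fold change of the 8 was 0.65, beside 0.02 over all genes tested. Between double mutants and Jab1 mutants 0 were called by edgeR and by DESeq2, with 0 at an unadjusted p below 0.05. Between double mutants and WT 0 were called by edgeR, beside 0.175% of all genes called higher. By edgeR 2 had an unadjusted p below 0.05, beside 7.82% of all genes in the higher direction. DESeq2 called 1, and its share over all genes is not given here. Of 23 receptors, 7 passed the filter, and 2 were called higher in Jab1 mutants, Cx3cr1 among them, beside 5.19% of all genes tested. In the edgeR fit of all 12 samples 0 receptors were called.

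Cx3cr1, the fractalkine receptor of microglia, was at 11.2 ± 6.21 CPM in WT, 103 ± 35.0 in Jab1 mutants and 273 ± 449 in double mutants (SD, n = 4), with a log2 fold change of 3.33 between Jab1 mutants and WT (SE 0.51, adjusted p = 0.00450, edgeR), or an adjusted p of 0.0861 in the fit of all 12 samples. Ackr3, an atypical receptor that takes up Cxcl12, was at 26.2 ± 14.8, 48.5 ± 26.3 and 48.4 ± 36.8 CPM, with a log2 fold change of 0.996 between Jab1 mutants and WT (SE 0.53, adjusted p = 0.302). The receptors Ccr1, Ccr2, Cxcr3, Cxcr4 and Cxcr6 had means of at most 1.72 CPM in every genotype and did not pass the filter. The receptor that draws monocytes to Ccl2, Ccr2, had its highest mean in Jab1 mutants, 1.72 CPM with a range of 0 to 6.23.

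The genes whose pattern was most like that of each member were found by the correlation of deviations from genotype means over the 12 samples. They were Ltc4s (0.99) and Ptpn1 (0.97) for Ccl3, Ifi204 (0.97) and Clec5a (0.96) for Ccl4, and Slc7a8 (0.99) and Irf8 (0.96) for Ccl6. For Ccl12 they were Ifi211 (0.97) and Cd52 (0.96), for Ccl5 H2-Q5 (0.96) and Ppm1j (0.95), and for Cxcl10 Rec8 (0.94) and Myo1g (0.93). For Ccl2 they were Pcdhb19 (0.98) and Mcrip2 (0.94), for Cxcl12 Podxl (0.98) and Irf2 (0.98), and for Cxcl16 Tmem37 (0.94) and Fermt3 (0.91). No gene was listed for more than 1 member. Each was picked as among the highest of all genes tested, so high values follow from the choice and are no test. Without double-mutant replicate 3 the correlations of these pairs were between 0.79 (Cxcl16 and Fermt3) and 0.98 (Cxcl12 and Irf2). Reads of H2-Q5, Ifi204, Ifi211 and Pcdhb19 may be shared with close copies of these genes.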

How the data were processed

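RNA-Seq was measured in 12 samples of sorted O1+ CD45- cells, grouped by the genotype in their labels. Libraries were made by the authors with the SMART-Seq v4 kit, and paired-end reads were trimmed (Trimmomatic 0.32), aligned to GRCm38 (STAR 2.5.3a) and counted with featureCounts on GENCODE basic genes. Each deposited value is the raw count of a gene symbol, and whether strand was used in counting is not given in the sources used here. The submitters' notes also name DESeq2.

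Here CPM was computed with TMM factors of all 12 samples. For each comparison the counts of its 8 samples were fitted by quasi-likelihood in edgeR 4.0.16 under R 4.3.3. The 17716 genes that reached 1 CPM in 4 or more of all samples were tested, and p-values were adjusted over them by Benjamini-Hochberg, with a threshold of 0.05. Ccl7, below this filter, was compared by exact permutation over 70 relabelings. Positions and lengths were from GENCODE M21. Alternatives were DESeq2 1.42.0 on 8 and on 12 samples, DESeq2 size factors and upper-quartile scaling in edgeR, 1 edgeR fit of all 12 samples, a mean of at least 10 CPM, no filter, limma-voom (limma 3.58.1) with quality weights, the replicate number as a block, and each sample left out in turn. Scripts were tested on simulated data. Members and lists were chosen with earlier results of these data known. All 10 members were named, with the other ligands and receptors that were called, the receptors of the members, and the 2 genes most like each tested member. Single-gene results of 1 gene of these lists are not reported here.

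Total counts were 61485556 to 153495112 per sample, so that 1 CPM after TMM scaling was 72.8 to 148 counts and the spread between samples limited precision. The floor of 3 counts covers counting error only, since reads carried no molecular identifiers. Replicates of a genotype differed far beyond sampling noise (chi-square 160 or more for each degree of freedom). Of the numbered samples, those sharing a number in 2 genotypes had deviations correlated between -0.189 and 0.0841, so the numbers do not pair samples. In the block fit, a sample whose number is absent from the other genotype adds nothing to the fold change. That fit rests on numbers 1 and 3 for Jab1 mutants and WT. For double mutants it rests on 1, 2 and 3 against Jab1 mutants and on 1, 3 and 5 against WT. A call lost in it cannot be told apart from the loss of samples.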

Additional observations from a re-analysis of the deposited data

Results flagged for a closer look

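In each genotype, the highest or lowest of the 4 samples was compared with the other samples by Dixon's gap test, in 30 groups of 10 members and 3 genotypes. It flagged 7. A group in which only 1 sample holds counts is flagged whatever the count. The number flagged therefore cannot be set against the 1 in 20 that chance flags among continuous values. In 6 of the 7 flagged groups 1 sample held counts and the other 3 none. Among WT samples this was replicate 6 for Ccl3 (0.933 CPM, 84 counts) and replicate 3 for Ccl4 (0.0405 CPM, 6 counts), Ccl5 (0.277 CPM, 41 counts), Ccl6 (0.816 CPM, 121 counts) and Cxcl10 (0.432 CPM, 64 counts). WT replicate 3 thus held all the WT counts of these 4 chemokines, and it held 0 counts of Ptprc. Among Jab1 mutants it was replicate 2 for Ccl7 (0.250 CPM, 30 counts). The other flagged sample was Jab1-mutant replicate 2 for Cxcl12, at 87.2 CPM where the others were between 394 and 487 CPM.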

How the results depend on the processing

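The count of members called higher in Jab1 mutants than in WT was 9, between 6 and 9 under the other tools, scalings and filters, and 5 to 9 with a sample left out. Over all genes, 919 were called higher in the main fit and from 420 (replicate block) to 1687 (DESeq2 on 8 samples) under the others. With a sample left out they were 504 to 1196. At a mean of at least 10 CPM, 7 of 7 members tested were called, and without a filter 6 of 10. The count in double mutants against WT was 2, and 7 with DESeq2 on 8 samples, 9 with DESeq2 on 12 samples, 4 with 1 edgeR fit of all samples, 1 without a filter, 0 with limma-voom, 1 with the replicate block, and 0 to 3 with a sample left out. In the main fit of double mutants against WT, 31 of all genes were called higher. The numbers over all genes in its other fits are not given here, so the counts of members cannot be set against them. The cause of these changes in the counts was not tested. For single members, calls against WT were lost in 32 fits for Jab1 mutants and 18 for double mutants and gained in 17 for double mutants, and directions against WT did not turn in any alternative. Between double mutants and Jab1 mutants the sign turned in 14 fits. Ccl4 was at -1.29 with limma-voom and -1.30 with the replicate block. With a sample left out, the log2 fold change ranged from -0.13 to 1.36 for Ccl2, -3.11 to 0.37 for Ccl3, -1.90 to 0.91 for Ccl4, -0.0092 to 2.21 for Ccl6, -0.69 to 2.33 for Ccl12 and -1.76 to 0.39 for Cxcl16. The lowest value of each was without double-mutant replicate 3. Of other ligands, limma-voom called 0 in Jab1 mutants, and DESeq2 on 8 samples called 2 in Jab1 mutants and 1 in double mutants against WT. Of receptors, 0 were called in Jab1 mutants by the edgeR fit of all 12 samples, 1 was called in Jab1 mutants at a mean of at least 10 CPM, and 2 in double mutants by DESeq2 on 8 samples. With the block, 6 members were called in Jab1 mutants against WT, where only numbers 1 and 3 occur in both genotypes.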
